A study of Saccharomyces cerevisiae with 6 samples.

Results

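The biotin genes of S. cerevisiae BY4741 are described here by their transcript levels in 3 RNA sequencing libraries. With earlier results of these data known, the 5 genes were chosen by name, and none by its measured values, out of 6572 counted features. They are BIO2 (YGR286C), BIO3 (YNR058W), BIO4 (YNR057C), BIO5 (YNR056C) and VHT1 (YGR065C), and each had reads in all 3 libraries. BY4741, a haploid derivative of the reference strain S288C, carries deletions in HIS3, LEU2, MET17 and URA3. The labels state that it was grown for 6 h in ILM, a medium given by that name alone, and harvested in mid-exponential phase. No label gives the composition of that medium, so whether and how much biotin the cells received is not known here. The series also holds 3 libraries of S. boulardii Biocodex, a probiotic yeast, grown for the same time in the same medium. Their count files name features by another kind of identifier, 0 of which occur in the BY4741 files, so the biotin genes were not compared between the strains and every value below is of BY4741.

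Biotin, or vitamin H, is the carboxyl-carrying cofactor of the carboxylases that feed fatty acid synthesis and replenish oxaloacetate. Yeast either imports it through Vht1, a proton symporter of the plasma membrane, or makes it from late precursors. In the second route Bio5 imports the precursor KAPA, Bio3 aminates KAPA to DAPA, Bio4 closes the ring to dethiobiotin, and the iron-sulfur enzyme Bio2, a mitochondrial protein, inserts the sulfur. S288C lacks the earlier steps of the pathway and cannot make biotin without such a precursor. Vhr1 is a transcription factor that raises VHT1 and BIO5 when biotin is low, and it acts through a site known as the vitamin H-responsive element.

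The sites of that element upstream of both transporter genes are shown because the element is the known site of the biotin-responsive factor. That factor is known to act on both genes through it, so a match before each is a description and no independent result. The sequences were read from the RefSeq sequence of S288C, build R64. The build used for the counts is not given in the sources used here, and no count depends on these coordinates. Each is printed 5′ to 3′ on the coding strand of its gene (minus), with 30 bases on either side and the element in capitals, and the third is the middle of the space between the divergent genes BIO4 and BIO3, printed on the plus strand.
VHT1, chrVII:620076-620153: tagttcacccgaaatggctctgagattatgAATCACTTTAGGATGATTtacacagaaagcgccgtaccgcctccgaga
BIO5, chrXIV:733539-733616: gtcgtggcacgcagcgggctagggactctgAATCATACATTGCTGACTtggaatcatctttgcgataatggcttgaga
BIO4-BIO3, chrXIV:734130-734230: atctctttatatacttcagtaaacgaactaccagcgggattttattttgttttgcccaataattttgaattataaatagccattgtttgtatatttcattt

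The element was searched on both strands as AATCA followed, after any 8 bases, by TGACT or TGATT, in the 300 bases before each coding start. In VHT1 it spans bases 265 to 248 before the start, and in BIO5 it spans bases 283 to 266. The VHT1 site matches on both strands, as any site with TGATT does, because that form of the pattern is its own reverse complement. The BIO5 site lies inside the coding sequence of BIO4, since only 52 bp separate the coding sequences of BIO4 and BIO5. BIO2, BIO3 and BIO4 held no match in 300 or in 600 bases. Of the 5897 genes with a window of 300 bases, 14 held the element (0.237%), and of the 5895 with one of 600 bases, 21 did (0.356%). The 12 other genes with a match in 300 bases ranged from 0 to 188 CPM (reads scaled to a common library total), with a median of 61.4. Of these 12 genes, 8 lay above the median of all features, which by definition divides all features evenly. The counts are of genes and not of distinct sites. The matches before PZF1 and RPO26, both on chromosome XVI, are exact reverse complements of each other and may be 1 shared site. TGCACCC, taken as the core of the site of the iron regulator Aft1, was found in 0 of the 5 windows and in 1.34% of all windows of 300 bases. Only that exact string was searched, so other forms of an Aft1 site were not covered. TGACTC, the core of the site of Gcn4, the general regulator of amino acid synthesis, occurred 85 bases before BIO5 and 109 bases before VHT1, and in 7.89% of all windows of 300 bases. In 600 bases it was also found before BIO2 (377 bases from the start) and BIO3 (2 sites), and in 15.5% of all windows. A match describes letters and does not show that a factor bound there.

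The genes lie in 3 places of the R64 annotation. BIO5, BIO4 and BIO3 are neighbours on chromosome XIV, in that order along the plus strand. The sides of these genes that face the right end of the chromosome lie 48.6 to 51.0 kb from it. BIO5 and BIO4 are on the minus strand and BIO3 is on the plus strand, so that BIO4 and BIO3 diverge from a shared space of 221 bp. BIO2 is on the minus strand of chromosome VII, 26.0 kb from its right end, and VHT1 is on the same strand 471 kb from that end. The coding sequences are 1128 bp for BIO2, 1443 bp for BIO3, 714 bp for BIO4, 1686 bp for BIO5 and 1782 bp for VHT1, each in 1 part. None of the 5 shares an exact 50-base stretch with the coding sequence of another counted gene that has a coding length. Copies with differences in every such stretch, and features without a coding length, were not covered by this search. GC content was highest in BIO4 (45.9%) and lowest in VHT1 (39.0%).

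In replicates 1, 2 and 3 a total of 18707708, 5181546 and 4581414 reads fell on listed features, so that 1 read stands for 0.0535, 0.193 and 0.218 CPM. LEU2, URA3 and MET17 had 0 reads in each, while HIS3, which the strain has lost only in part, had 925, 196 and 285 reads. Whether the libraries came from separate cultures is not stated in the labels, so their spread may be technical. Levels are averages over a culture, in which fewer expressing cells and less RNA per cell cannot be told apart. Intervals printed below are exact Poisson intervals of 95% and cover counting error only. Comparisons between genes use CPM per kb of coding length.

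Among the 5 genes BIO2 was the most abundant and BIO5 the least, and together they took 1132, 1396 and 1229.7 CPM in replicates 1, 2 and 3 (1253 ± 133, SD, n = 3). BIO2 supplied 46.5% ± 3.07 of those reads and BIO5 5.34% ± 0.912 (SD, n = 3 each). Per kb of coding length the order was BIO2, BIO4, BIO3, VHT1 and BIO5, with BIO3 and VHT1 not separated by their spread. All 5 genes lay above the median of the 6572 features, which was 49.5 CPM. Per kb, 4 of the 5 lay above the median of the 5898 genes with a coding length, 45.9 CPM per kb, and BIO5 lay just below it.

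**Figure D1:**
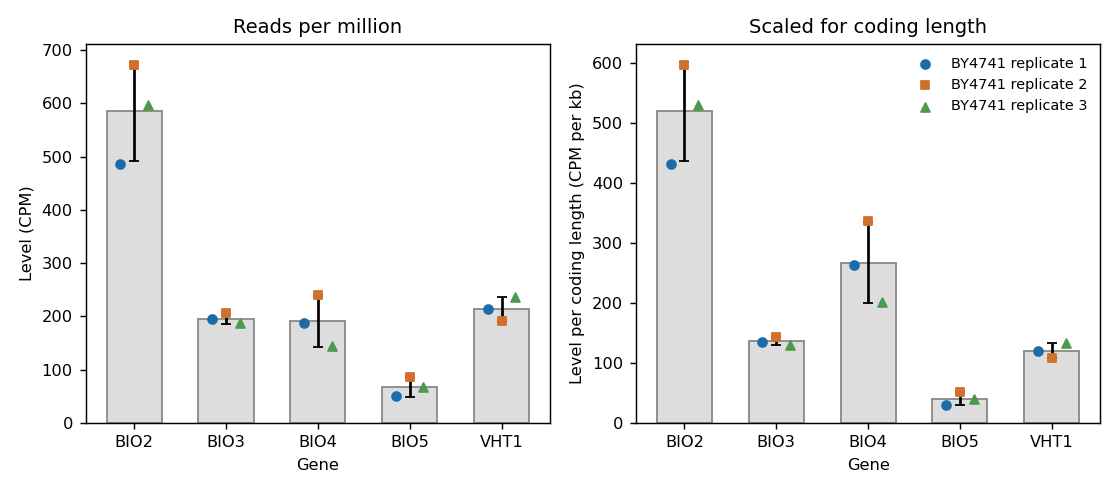
Level of each biotin gene in the 3 BY4741 libraries, as CPM (left axis panel) and as CPM per kb of coding length (right axis panel). Bars are means, error bars are SD (n = 3) and points are libraries. BIO2 stands highest and BIO5 lowest on both scales. The mean of BIO4 rises above those of BIO3 and VHT1 only after scaling for its short coding sequence. In replicate 2 BIO4 was above both before scaling as well.

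VHT1, the importer of biotin itself, had 4000, 994 and 1085 reads in replicates 1, 2 and 3. These are 214, 192 and 237 CPM (214 ± 22.5, SD, n = 3), with counting intervals of 207 to 221, 180.1 to 204 and 223 to 251. Replicate 2 was the lowest and replicate 3 the highest, and the counting intervals of the 3 libraries did not overlap. Per kb of coding length VHT1 stood at 120.2 ± 12.6 CPM (SD, n = 3), 2.62 times the median gene, and 74.6% of genes were lower.

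BIO5, the importer of the precursor KAPA, had 932, 450 and 304 reads in replicates 1, 2 and 3. These are 49.8, 86.8 and 66.4 CPM (67.7 ± 18.5, SD, n = 3), with counting intervals of 46.7 to 53.1, 79.0 to 95.3 and 59.1 to 74.2. Replicate 2 exceeded replicate 1 by 1.74-fold, the widest range of the 5 genes. Per kb BIO5 stood at 40.1 ± 11.0 CPM (SD, n = 3), 0.875 times the median gene, and 46.3% of genes were lower. Of the 5 it is the only one above the median in CPM and below the median per kb. Those 2 medians are over unlike sets, all 6572 features for CPM and the 5898 genes with a coding length per kb.

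BIO3, the aminotransferase that forms DAPA, had 3638, 1066 and 855 reads. These are 194, 206 and 187 CPM in replicates 1, 2 and 3 (196 ± 9.60, SD, n = 3). BIO3 was the steadiest of the 5, with a highest library 1.10 times the lowest. The 3 counting intervals overlapped each other, at 188 to 201, 194 to 218 and 174 to 199.6 CPM. Per kb it stood at 136 ± 6.66 CPM (SD, n = 3), and 76.9% of genes were lower.

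BIO4, the dethiobiotin synthetase, had 3507, 1244 and 658 reads. These are 187, 240.1 and 144 CPM (190.4 ± 48.3, SD, n = 3), with counting intervals of 181 to 194, 227 to 254 and 133 to 155. Replicate 2 was highest and replicate 3 lowest, a range of 1.67-fold in which no counting intervals overlapped. Per kb BIO4 stood at 267 ± 67.6 CPM (SD, n = 3), 5.81 times the median gene, and 87.6% of genes were lower.

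BIO2, the biotin synthase of the last step, had 9106, 3480 and 2732 reads. These are 487, 672 and 596 CPM (585 ± 93.0, SD, n = 3), with counting intervals of 477 to 497, 649 to 694 and 574 to 619. Replicate 1 was the lowest and replicate 2 the highest, a range of 1.38-fold. Each library of BIO2 exceeded each library of the other 4 genes on both scales. Per kb it stood at 519 ± 82.4 CPM (SD, n = 3), 11.3 times the median gene, and 93.3% of genes were lower.

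Within each library BIO2 was set against the other genes per kb of coding length. Its log2 ratio over BIO4, the preceding enzyme, was 0.72, 0.82 and 1.39 in replicates 1, 2 and 3, a mean of 0.98 ± 0.36 (SD, n = 3) or 1.97-fold. Over BIO3 the mean was 1.92 ± 0.21, over VHT1 2.10 ± 0.32 or 4.29-fold, and over BIO5 3.72 ± 0.17 or 13.1-fold (SD, n = 3 each). The terminal enzyme of the route was thus higher than every other member in 3 of 3 libraries.

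BIO4 exceeded BIO3, its divergent neighbour, by log2 ratios per kb of 0.96, 1.24 and 0.64 in replicates 1, 2 and 3 (0.95 ± 0.30, SD, n = 3). On reads not scaled for length the direction was not kept, with log2 ratios of -0.05, 0.22 and -0.38. BIO4 also exceeded VHT1 (1.12 ± 0.52) and BIO5, its tandem neighbour (2.74 ± 0.40), in 3 of 3 libraries (log2 per kb, SD, n = 3 each). BIO3 and VHT1 were not separated. Their log2 ratio per kb was 0.17, 0.41 and -0.04, a mean of 0.18 ± 0.22 (SD, n = 3), with the order turned in replicate 3. BIO5 lay below BIO3 and below VHT1 in 3 of 3 libraries, the log2 ratio per kb being 1.79 ± 0.37 for BIO3 over BIO5 and 1.61 ± 0.49 for VHT1 over BIO5 (SD, n = 3 each).

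In an exact two-sided sign-flip permutation test over the 3 libraries, 9 of the 10 pairs gave p = 0.25 and BIO3 over VHT1 gave p = 0.5 (0.278 and 0.5 after the Benjamini-Hochberg procedure over the 10 pairs). The value of 0.25 is the smallest that 3 libraries allow, so no pair could pass 0.05, and the order rests on direction and spread.

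The 5 genes did not move together from library to library. As log2 deviations from the mean of a gene's 3 libraries, BIO5 and BIO2 were low in replicate 1, at -0.41 and -0.25, whereas BIO3, BIO4 and VHT1 stood within 0.01 of their means there. In replicate 2 the 4 BIO genes were above their means, by 0.40 for BIO5, 0.37 for BIO4, 0.21 for BIO2 and 0.07 for BIO3, and VHT1 was below, at -0.15. In replicate 3 BIO4 was low at -0.38 and VHT1 high at 0.15. The distance between a pair of profiles, the root of the summed squared differences of these deviations, was smallest for BIO2 and BIO5 (0.24), which lie on different chromosomes. It was 0.42 for the divergent pair BIO3 and BIO4, 0.56 for the tandem pair BIO4 and BIO5, and largest for BIO4 and VHT1 (0.74). VHT1 and BIO5, the pair with the element printed above, stood at 0.70. With 3 libraries no correlation between genes was computed.

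**Figure D2:**
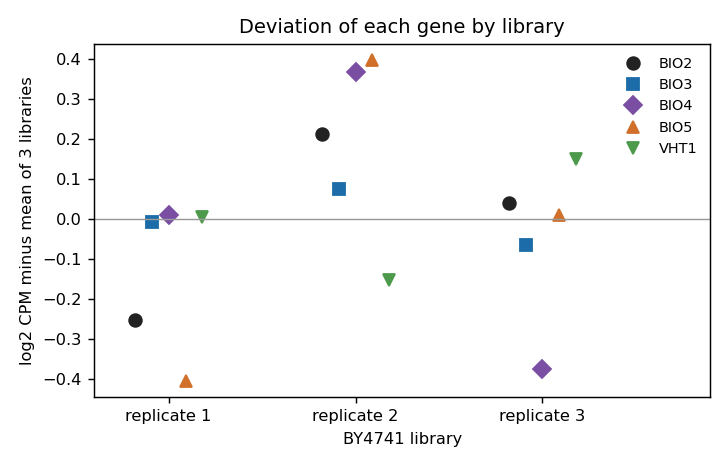
Deviation of each biotin gene from the mean of its own 3 libraries, in log2 CPM, for BY4741 replicates 1, 2 and 3 (points are genes, shifted sideways for legibility). The 4 BIO genes lie above 0 in replicate 2 and VHT1 lies below it, while BIO4 alone lies far below 0 in replicate 3.

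The spread between libraries was larger in value than counting error for each of the 5 genes, and BIO3 was steadier than most genes of its level. The coefficient of variation of CPM was 27.4% for BIO5, 25.4% for BIO4, 15.9% for BIO2, 10.5% for VHT1 and 4.91% for BIO3. Counting error alone corresponds to 4.97%, 2.84%, 1.67%, 2.70% and 2.81% in the same order. Among the features within 2-fold of each gene's mean CPM, the share with a smaller coefficient of variation was 61.1% for BIO5 (of 2407), 78.8% for BIO4 (of 1640), 52.9% for BIO2 (of 563) and 27.7% for VHT1 (of 1486). For BIO3 it was 6.21% of 1595, the lowest share of the 5.

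Genes whose profile over the 3 libraries was nearest to each member's were looked up among 4806 named genes of at least 10 CPM. For BIO2 they were ARP3, at a distance of 0.009, and HIP1, at 0.01. For BIO3 they were RAS2 (0.006) and MIM1 (0.01), and for BIO4 RRT2 (0.02) and GYL1 (0.02). For BIO5 they were NCR1 (0.02) and MKT1 (0.02), and for VHT1 DNF3 (0.005) and RPS14A (0.007). Over only 3 libraries such matches are common. A distance of at most 0.1 was reached by 127 genes for BIO2, 176 for BIO3, 58 for BIO4, 32 for BIO5 and 170 for VHT1, and no member had another member among its nearest genes.

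BIO2, BIO3 and BIO4 were higher per kb than the other genes next to their loci, while BIO5 and VHT1 each had a neighbour with a higher mean. BIO2, at 519 ± 82.4 CPM per kb, lay beside ZUO1, a chaperone gene of the ribosome, at 224 ± 6.80, and IMA1, an isomaltase gene, at 13.5 ± 6.65 (SD, n = 3 each). BIO4 and BIO3 were higher than the genes flanking the cluster. Those were HOL1, a transporter gene, at 71.0 ± 5.37 CPM per kb on the BIO5 side and MNT4, a mannosyltransferase gene, at 24.4 ± 7.05 on the BIO3 side (SD, n = 3 each). BIO5 was lower than HOL1 in 3 of 3 libraries. Farther out on the BIO3 side FRE4, a ferric reductase gene, had 59, 0 and 36 reads. VHT1, at 120.2 ± 12.6 CPM per kb, lay between SPT4, a transcription elongation gene, at 184 ± 64.7, and GID10 at 30.4 ± 8.98 (SD, n = 3 each). SPT4 was above VHT1 in replicates 1 and 3 and close to it in replicate 2, at 110 against 108 CPM per kb.

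**Figure D3:**
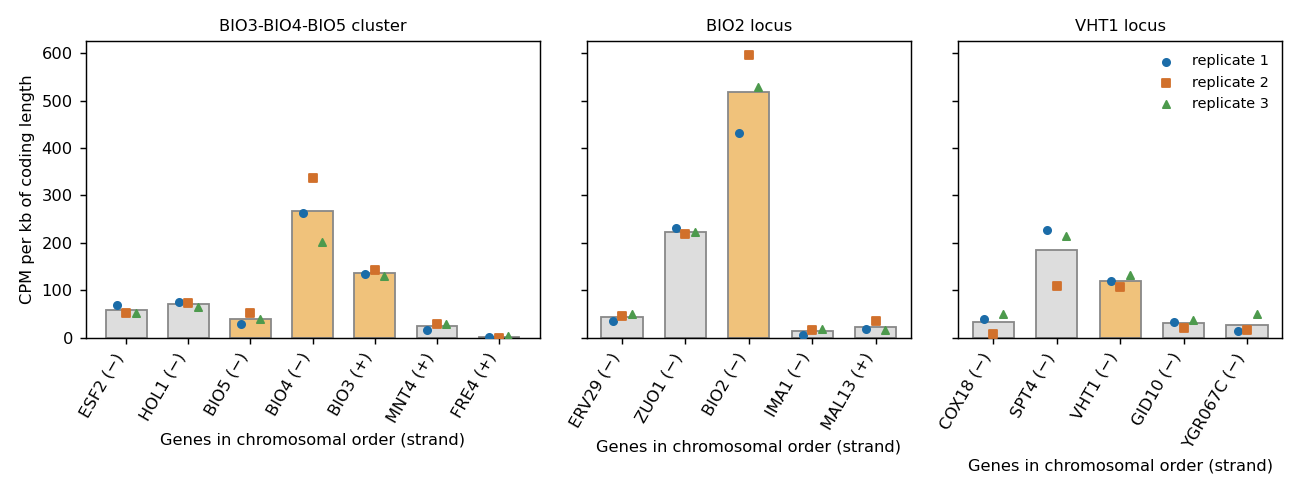
Levels in CPM per kb of coding length of the biotin genes (orange bars) and the 2 nearest annotated genes on either side (grey bars), in chromosomal order with the strand in brackets. Bars are means of 3 BY4741 libraries and points are libraries. BIO2, BIO4 and BIO3 rise above the flanking genes, whereas BIO5 lies below HOL1 and the mean of VHT1 below that of SPT4.

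The genes that use biotin ranged from among the most abundant of the lists to far below the median gene, with large differences within pairs of isoenzymes. Of 7 genes for the biotin ligase and the proteins it modifies, 6 lay above the median of all features in CPM (5 of them in each library) and 5 above the median gene per kb, where a median by definition divides all genes evenly. PYC1, a pyruvate carboxylase, stood at 540.1, 461 and 541 CPM per kb in replicates 1, 2 and 3 (514 ± 45.8, SD, n = 3), close to BIO2. PYC1 exceeded its isoenzyme PYC2 4.01-fold per kb, with log2 ratios of 2.04, 1.57 and 2.40 in the 3 libraries and PYC2 at 129.7 ± 26.5 CPM per kb (SD, n = 3). The 2 genes share 8.46% and 8.44% of their 50-base stretches, so a part of their reads could be split by the counting.

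ACC1, the acetyl-CoA carboxylase of the cytosol, stood at 170, 173 and 228 CPM per kb (190.2 ± 32.6, SD, n = 3). HFA1, its mitochondrial counterpart, stood at 7.38 ± 1.39 CPM per kb (SD, n = 3), and ACC1 exceeded it 25.8-fold (log2 4.69 ± 0.48, SD, n = 3). ARC1, a cofactor of tRNA synthetases that carries biotin, stood at 378 ± 27.1 CPM per kb, and DUR1,2, the urea amidolyase, at 52.1 ± 16.6 (SD, n = 3 each). DUR1,2 passed the median gene through replicate 3 alone, with 44.9, 40.4 and 71.1 CPM per kb in replicates 1, 2 and 3. BPL1, the ligase that attaches biotin to all of them, was low, at 25.6, 41.1 and 18.4 CPM per kb (28.4 ± 11.6, SD, n = 3). BIO2 exceeded BPL1 19.1-fold per kb (log2 4.26 ± 0.52, SD, n = 3), in 3 of 3 libraries.

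Regulators of the route were read at moderate levels. VHR1, the biotin-responsive factor, stood at 78.5, 74.7 and 49.6 CPM per kb (67.6 ± 15.7, SD, n = 3). VHR2, its paralog, stood at 73.9, 69.4 and 98.8 (80.7 ± 15.8, SD, n = 3). The log2 ratio of VHR1 over VHR2 was 0.09, 0.11 and -0.99, so that replicate 3 alone had clearly more VHR2. In that library VHT1 was at its highest and BIO4 at its lowest, and any relation was not tested. AFT1 and AFT2, iron regulators, stood at 36.6 ± 6.42 and 28.4 ± 8.81 CPM per kb (SD, n = 3 each), both below the median gene.

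Bio2 needs iron-sulfur clusters made in mitochondria, and of 12 genes of their assembly 7 lay above the median of all features in CPM and 9 above the median gene per kb. In CPM only 4 lay above in each library, and 4 against the median of features of at least 1 CPM. ISU1, the scaffold, led at 1163, 1069 and 1697 CPM per kb (1310 ± 338, SD, n = 3), and NFS1, the cysteine desulfurase, stood at 168 ± 24.4 (SD, n = 3). The factors known to act late, on BIO2 and related enzymes, were unequal. ISA1 stood at 382 ± 70.9 CPM per kb (SD, n = 3). Its partner ISA2 had 643, 1 and 47 reads, or 34.4, 0.193 and 10.3 CPM, and IBA57 had 418, 180 and 42 reads, or 22.3, 34.7 and 9.17 CPM. ISA2 was therefore almost unread in replicate 2, the library in which BIO2 was highest, and any relation was not tested. SAM1 and SAM2 make S-adenosylmethionine, the amino donor of the bacterial counterpart of Bio3 and a cofactor of biotin synthases. They stood at 74.3 ± 11.4 and 31.2 ± 6.15 CPM per kb (SD, n = 3 each).

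Among transporters of the family of VHT1, the allantoate permeases, VHT1 was second to TNA1, the nicotinic acid importer. TNA1 stood at 279, 315 and 331 CPM per kb (308 ± 26.9, SD, n = 3), and the log2 ratio of VHT1 over TNA1 was -1.36 ± 0.17 (SD, n = 3). The other 6 relatives stood between 1.65 CPM per kb for SOA1, with 0, 17 and 22 reads, and 35.9 for FEN2, the pantothenate importer. Of the 7 relatives, 3 were above the median of all features in CPM and 1, TNA1, was above the median gene per kb. The count of 3 became 2 without any 1 of the libraries and 1 against the median of features of at least 1 CPM, and only TNA1 was above in each library. The 5 importers of other vitamins outside that family were each lower than VHT1 per kb in 3 of 3 libraries. The pyridoxine importer TPN1 stood at 51.0 ± 2.71 CPM per kb and the thiamine importer THI7 at 45.3 ± 5.25 (SD, n = 3 each), with VHT1 2.35-fold and 2.65-fold higher. BIO5 was compared with permeases of its own superfamily. It exceeded the choline importer HNM1 (log2 0.53 ± 0.33) and the polyamine exporter TPO5 (1.01 ± 0.84) per kb in 3 of 3 libraries (SD, n = 3 each), and the GABA importer UGA4 by 3.63-fold on average, also in 3 of 3. For HNM1 the ratio fell to 0.16 in replicate 3, and for UGA4 it was 2.99 in replicate 1, where UGA4 had 119 reads.

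**Figure D4:**
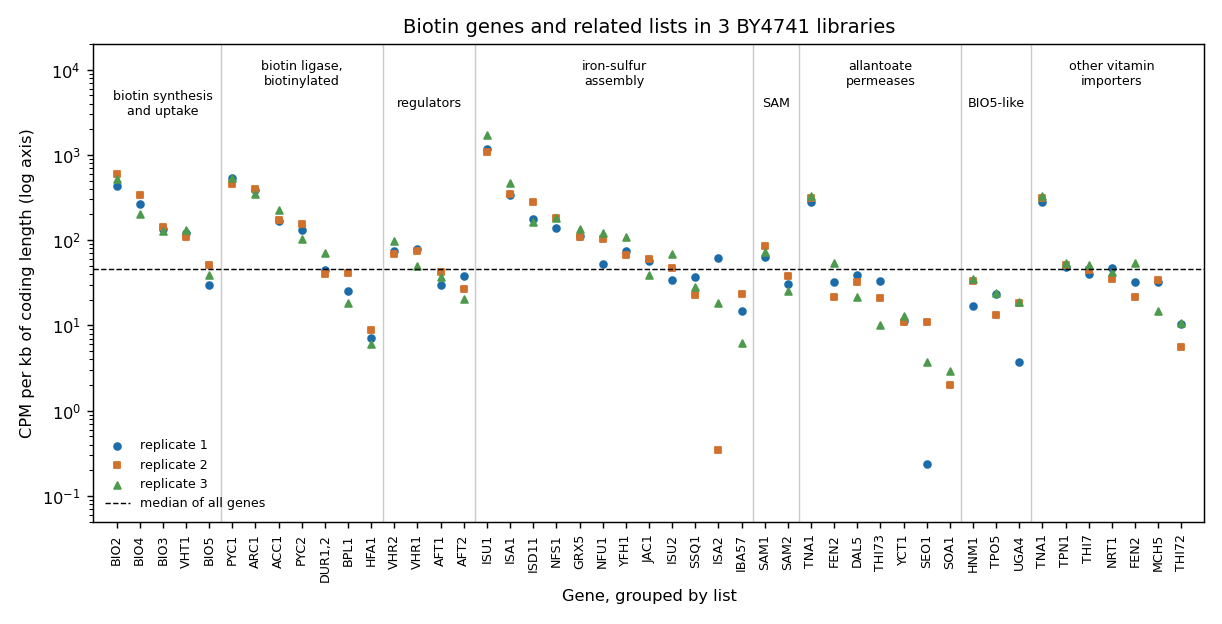
Levels in CPM per kb of coding length (log axis) of the biotin genes and of related gene lists, with 1 point per BY4741 library and a dashed line at the median of all genes, 45.9 CPM per kb. SOA1 had 0 reads in replicate 1 and that point is not drawn. FEN2 and TNA1 stand in both transporter lists.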

How the data were processed

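RNA was taken from pelleted cells, and libraries were made with a NuGEN Universal Plus mRNA-Seq kit, per the labels' protocols. The authors deposited raw read counts per feature, 1 file per library, with no normalization. FastQC, TopHat, HTSeq and DESeq2 are named in the submitters' processing notes, with no versions. The genome build, the annotation and whether counting used strand were not given in the sources used here. Without strand, sense and antisense reads cannot be told apart.

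Counts were divided by library totals to give CPM and by coding length from the RefSeq annotation R64 (5898 of 6572 identifiers matched). Values are means and SDs over 3 libraries, and ratios were taken within libraries. No fit across genes was made, and no contrast between the strains, which share 0 identifiers. The members and lists were chosen with earlier results of these data known, and the motifs, the 600-base window and the 14 ratios with related genes were chosen after values had been seen. Genes were named by membership in the lists, as the 2 nearest neighbours on either side of each locus, and as the 2 nearest profiles (log2 of CPM + 0.5, centred) for each member. Profile search, spread and motif search were tried on simulated data. There counting error was the only noise, and sites were planted in sequence made of G and C alone. That setting lacks the extra spread between these libraries and matches that arise by chance. Alternatives were TMM factors (edgeR 4.0.16), DESeq2 1.42.0 size factors, length scaling, an offset, low-level filters and omission of each library. Python 3.11.15, numpy 2.4.6, pandas 2.3.3, SciPy 1.17.1 and R 4.3.3 were used.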

Additional observations from a re-analysis of the deposited data

How the results depend on the processing

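The mean CPM of each of the 5 genes moved by less than 1 SD with TMM factors and with DESeq2 size factors. When a library was left out, the mean ranged from 542 to 634 for BIO2, 191 to 200.1 for BIO3 and 166 to 214 for BIO4. For BIO5 it ranged from 58.1 to 76.6 and for VHT1 from 203 to 225. Leaving out 1 of 3 libraries cannot move a mean by 1 SD, whatever the values, so only these ranges are given. Without length scaling 3 of the 10 log2 ratios turned: BIO4 over BIO3 to -0.069, BIO4 over VHT1 to -0.20 and BIO3 over VHT1 to -0.13, because the lengths differ. Adding 0.5 reads or leaving out a library turned none of the 10. A ratio with the same direction in each library cannot turn when 1 is left out, so only BIO3 over VHT1 could have. The lowest count of the 5 genes was 304 reads, so 0.5 reads could hardly change a ratio. Against the median of features of at least 1 CPM, 62.3 CPM, the iron-sulfur list had 4 members above in place of 7 and the allantoate permeases 1 in place of 3, a count that was 2 without each library. The 3 relatives of BIO5 had 0 to 1 above the median when a library was left out, 1 being reached without replicate 1. No paired analysis was possible because the strains that share replicate numbers share no gene identifiers. This concerns pairs of libraries across strains, and the titles give numbers without stating that libraries of equal number belong together. Ratios between genes were taken within BY4741 libraries. Replicates 2 and 3 are shallower, and 1 read there stands for 0.193 and 0.218 CPM.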
